A study of Mus musculus with 4 samples.

Results

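The genes of the nuclear-encoded respiratory chain and ATP synthase were examined in maps of histone H3 trimethylated at lysine 36 (H3K36me3) from mouse spermatocytes, the germ cells that pass through meiosis. They were taken by name as all autosomal protein-coding genes of the mm9 GENCODE annotation whose symbols begin with Nduf, Uqcr, Sdha to Sdhd, Cox4 to Cox8, or Atp5. This gave 91 of 21418 autosomal protein-coding genes, or 90 different names, because Ndufb8 has a pair of overlapping gene models. The mark was mapped by ChIP-seq in spermatocytes from mice at 14 dpp (days post-partum), in C57BL/6J (B6) and of B6.Cg-Prdm9<tm1.1Kpgn>/Kpgn (KI), a knock-in in which the zinc finger exon of Prdm9 comes from the CAST/EiJ allele and the rest of the genome is that of B6. Input DNA, labelled as 15 dpp, served as the control for peak calling in each strain. Biological replicates were merged before peaks were called, so each strain is represented by 1 pooled list of broad regions and 1 of narrow, refined peaks, and no difference between strains could be tested against replicate error. More reads were merged for KI than for B6. The KI lists held 66566 broad regions and 72692 refined peaks and the B6 lists 54458 and 58502, although the broad regions covered 425 Mb in KI and 446 Mb in B6.

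H3K36me3 is placed along the bodies of transcribed genes by SETD2, which travels with elongating RNA polymerase II, and PRDM9 places the same mark at recombination hotspots. The respiratory chain passes electrons through complexes I to IV and pumps protons across the inner mitochondrial membrane, and complex V, the ATP synthase, uses the gradient to make ATP. Several subunits of complex IV (cytochrome c oxidase) exist as a ubiquitous form and as forms made mainly in testis, striated muscle or lung, each encoded by its own gene. Many ubiquitous genes have CpG-rich promoters with sites for the factors NRF1 and GABPA, the second of which binds ETS-type sites.

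The promoters of 3 ubiquitous genes and of a tissue form paired with each are shown first, because 5 of the 10 members with less than 50% of the gene body marked in at least 1 strain were tissue forms of complex IV. Each window holds 250 bases before and 50 after the annotated 5′ end, is written 5′ to 3′ on the strand of the gene, and was read from the mm9 sequence. Capitals mark matches on either strand to the NRF1 motif, which is GCGCA and GCGC with any base between them, or to the ETS motif CCGGAAG.
Cox6a1, chr5:115798941-115799240, minus strand: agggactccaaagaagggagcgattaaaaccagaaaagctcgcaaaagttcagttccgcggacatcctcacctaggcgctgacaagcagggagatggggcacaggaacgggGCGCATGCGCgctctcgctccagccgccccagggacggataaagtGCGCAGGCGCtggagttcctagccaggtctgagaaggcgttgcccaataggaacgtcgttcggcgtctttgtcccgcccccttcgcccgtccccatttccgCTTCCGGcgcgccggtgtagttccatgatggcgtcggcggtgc
Cox6a2, chr7:135349831-135350130, minus strand: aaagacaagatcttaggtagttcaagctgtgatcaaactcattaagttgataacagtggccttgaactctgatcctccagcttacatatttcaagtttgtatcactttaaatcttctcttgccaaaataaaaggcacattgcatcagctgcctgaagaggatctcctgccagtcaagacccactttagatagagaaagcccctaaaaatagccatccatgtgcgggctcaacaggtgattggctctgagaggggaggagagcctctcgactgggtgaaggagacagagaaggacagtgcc
Cox6b1, chr7:31411121-31411420, minus strand: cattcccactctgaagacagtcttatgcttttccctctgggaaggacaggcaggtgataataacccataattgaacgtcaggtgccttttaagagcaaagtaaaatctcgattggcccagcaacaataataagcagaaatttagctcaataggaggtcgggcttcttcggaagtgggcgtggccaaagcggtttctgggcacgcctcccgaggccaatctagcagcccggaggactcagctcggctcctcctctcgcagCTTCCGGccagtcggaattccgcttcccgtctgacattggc
Cox6b2, chr7:4704647-4704946, minus strand: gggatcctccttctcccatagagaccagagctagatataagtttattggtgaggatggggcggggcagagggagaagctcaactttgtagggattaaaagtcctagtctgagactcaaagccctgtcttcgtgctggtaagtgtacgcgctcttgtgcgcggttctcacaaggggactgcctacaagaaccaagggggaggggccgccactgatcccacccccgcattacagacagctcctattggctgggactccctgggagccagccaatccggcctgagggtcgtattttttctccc
Cox8a, chr19:7292057-7292356, minus strand: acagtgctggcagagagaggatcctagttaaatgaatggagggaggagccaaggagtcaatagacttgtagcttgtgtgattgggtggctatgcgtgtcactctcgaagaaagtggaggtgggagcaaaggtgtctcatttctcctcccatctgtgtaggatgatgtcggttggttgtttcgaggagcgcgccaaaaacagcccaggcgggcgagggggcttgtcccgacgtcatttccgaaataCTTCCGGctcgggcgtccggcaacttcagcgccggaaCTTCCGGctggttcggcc
Cox8c, chr12:104137266-104137565, plus strand: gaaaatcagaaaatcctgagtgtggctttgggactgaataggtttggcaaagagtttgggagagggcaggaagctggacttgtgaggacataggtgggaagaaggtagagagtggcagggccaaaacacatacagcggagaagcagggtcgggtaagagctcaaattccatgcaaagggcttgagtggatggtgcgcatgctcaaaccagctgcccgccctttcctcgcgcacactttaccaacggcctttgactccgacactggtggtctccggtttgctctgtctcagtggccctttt
The window of Cox6a1 held 30 CpG dinucleotides, 2 NRF1 matches and 1 ETS match, while that of its muscle form Cox6a2 held 2 CpG and no match. Cox6b1 had 15 CpG and 1 ETS match, against 10 CpG and no match for its testis form Cox6b2. Cox8a had 19 CpG and 2 ETS matches, against 9 CpG and no match for its testis form Cox8c. The pairs shown do not stand for all ubiquitous genes of complex IV. Cox5a, Cox5b, Cox6c, Cox7a2, Cox7c and Ndufa4 held no NRF1 or ETS match, and nor did Cox7a1, the muscle form of Cox7a2. Absence of a match says only that these letters are not in the window.

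A gene was called marked where broad regions covered at least 50% of its body, from the annotated 5′ to the 3′ end. In B6, 82 of the 91 genes were marked (90.1%, Wilson 95% interval 82.3 to 94.7), against 43.2% of all autosomal protein-coding genes. In KI, 82 were marked, against 41.6% of all genes, and 81 were marked in both strains (89.0%, 80.9 to 93.9), against 40.2%. The intervals treat genes as independent draws and cover counting error only. The median coverage of the 91 genes was 91.7% in B6 and 91.3% in KI, where the medians over all genes were 21.5% and 19.0%. The high share was also seen against genes of similar size. Among members with lengths between their own quartiles, 43 of 45 were marked in B6 and 42 of 45 in KI, while 44.6% and 43.9% of all genes in that length range were. It was also seen away from other genes, since 19 of 21 members with no other protein-coding gene within 5 kb were marked in B6 and 20 of 21 in KI, against 29.4% and 27.7% of all genes so placed. As a check of the labelled cell type, all 8 spermatocyte markers examined, Sycp1, Sycp3, Dmc1, Spo11, Prdm9, Stra8, Ddx4 and Mael, were marked in both strains, with coverage of at least 82.4% in B6 and 77.4% in KI. Of 4 Sertoli cell markers, Wt1 was marked in B6 only, with 71.7% against 8.50% in KI. Sox9 and Amh had 45.2% and 42.0% in B6 and 0% and 0.333% in KI, and Gata4 had 19.6% and 8.25%. The part of other testis cells in coverage that was higher in B6 was not tested. Of 4 Leydig cell markers, Star was covered to 100% in both strains and the others to at most 1.51%. None of 4 striated muscle markers was marked, and of 4 spermatid markers Prm2 alone was, with 0% in B6 and 100% in KI.

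**Figure D1:**
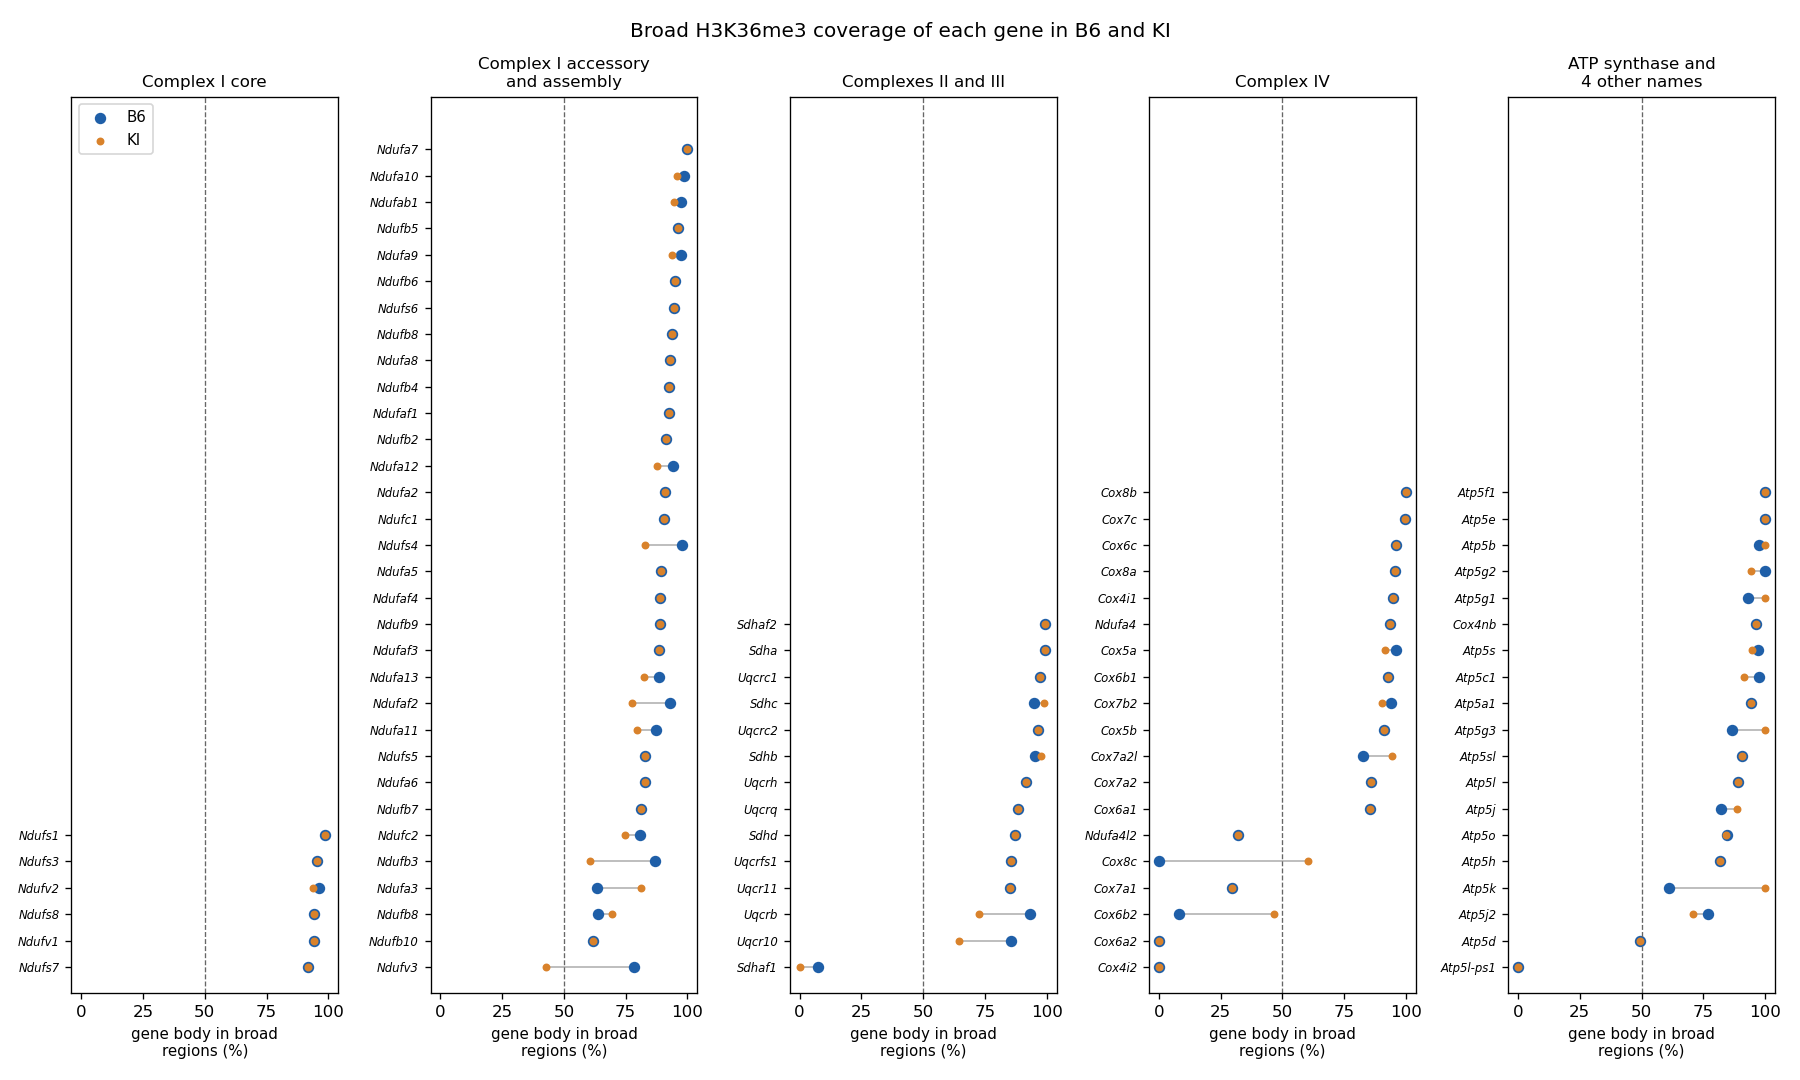
Share of each gene body inside broad H3K36me3 regions (%, x axis) for 90 of the 91 genes, grouped by complex, in B6 and KI. Points are pooled values of 1 list per strain with no error bar, and the line at 50% divides marked from unmarked genes. In complexes I, II, III and V most genes sit near 90%, and the low values are mostly in complex IV.

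Complex I takes electrons from NADH. All 39 of its genes were marked in B6 and 38 in KI. The 7 core subunits, among them those that carry the flavin and the iron-sulphur clusters, lay between 91.7% and 98.8% in both strains. Ndufs1, which holds iron-sulphur clusters, had 98.8% in both strains. Ndufv1, the subunit that binds NADH and the flavin, had 94.2% in both strains, and Ndufv2 had 96.1% and 93.9%. These core genes were covered almost from end to end in each strain. The 28 gene models of accessory subunits had a median of 90.6% in B6 and 89.0% in KI, and ranged down to 61.8% in B6 (Ndufb10) and 42.5% in KI (Ndufv3). Just above the threshold, Ndufb10 had 61.8% in both strains and Ndufa3 had 63.2% in B6 and 81.2% in KI. The 4 assembly factors, Ndufaf1 to Ndufaf4, were all marked, with 77.5% or more.

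Complex II oxidises succinate and is also an enzyme of the citric acid cycle. Its 4 subunit genes were marked in both strains. Sdha, the flavoprotein, had 99.2% in both, and Sdhb, the iron-sulphur subunit, had 95.1% in B6 and 97.9% in KI. The assembly factor Sdhaf2 had 99.2% in both strains. In contrast, Sdhaf1, a gene of 965 bp, had 7.36% in B6 and 0% in KI, and the region that reached it in B6 also covered its neighbour AI428936. All 8 genes of complex III, which passes electrons to cytochrome c, were marked. Uqcrc1, a core subunit, had 97.4% in both strains, and Uqcrfs1, the Rieske iron-sulphur protein, had 85.5% in both.

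The ATP synthase has a catalytic F1 part and a membrane Fo part joined by a stalk. Of its 15 genes, 14 were marked in both strains. Atp5a1, the alpha subunit, had 94.2% in both strains, and Atp5b, the catalytic beta subunit, had 97.6% in B6 and 100% in KI. Atp5c1, the gamma subunit of the rotor, had 97.4% in B6 and 91.3% in KI. The gene under the threshold was Atp5d, the delta subunit of F1, at 49.6% in both strains. The value depended on the gene model, since its longest transcript had 81.7% and its exons 70.0%. The 10 genes of Fo and the stalks were all marked, with medians of 85.7% in B6 and 91.6% in KI. Atp5o, a stalk subunit, had 84.7% and 84.3% over a model of 247 kb that spans the genes Itsn1 and Cryzl1. Its short transcript of 6.47 kb had 93.3% in both strains.

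Complex IV reduces oxygen to water, and its genes were split by form. All 10 ubiquitous genes were marked in both strains, with coverage from 85.3% to 99.6%. Cox4i1 had 94.7% in both strains, and Cox5a, which pairs with it in the assembled complex, had 95.9% in B6 and 91.4% in KI. Of the 7 tissue forms, 2 were marked in B6 and 3 in KI, against 43.2% and 41.6% of all autosomal protein-coding genes. Of the 10 members below 50% in at least 1 strain, 5 were tissue forms of complex IV.

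The testis forms did not share a pattern. Cox7b2, a gene of 105.4 kb with no other protein-coding gene within 5 kb, had 93.9% in B6 and 90.5% in KI. Its ubiquitous partner Cox7b, which is X-linked and so no member, had 93.2% and 78.3%. Cox6b2 had 8.07% in B6 and 46.5% in KI, where Cox6b1 had 92.7% in both strains, a difference of -84.6 and -46.2 percentage points. The broad region that touched the 3′ end of Cox6b2 began 1.196 kb from its 5′ end in B6 and 0.696 kb in KI and ran on into Suv420h2 on the other strand, ending at 11.7 kb in both strains. On exons alone Cox6b2 had 19.1% in B6 and 51.4% in KI. Cox8c had 0% in B6 and 60.5% in KI, where Cox8a had 95.7% in both strains. In KI a region of 2.5 kb, from 0.485 to 2.98 kb past its 5′ end, covered the rest of the gene and touched no other gene. The nearest broad region in B6 ended more than 8 kb before Cox8c. Cox6b2 and Cox8c are 1.30 and 1.23 kb long, so a step of 500 bp, the grid on which broad regions begin, is a large share of either gene.

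The forms of lung and muscle were mostly without the mark. Cox4i2, the lung form, had no broad region in either strain, where Cox4i1 had 94.7%. Cox6a2, the striated muscle form of Cox6a1, also had none, where Cox6a1 had 85.3% in both strains. Cox7a1 had 29.4% in both strains, against 85.7% for Cox7a2, and its covered end lay in a region from 1.31 kb past its 5′ end that ran over Capns1. Cox8b, the muscle form of Cox8a, was covered to 100% in both strains. It lay wholly inside a region from 2.66 kb before its 5′ end to 17.8 kb (B6) or 17.3 kb (KI) after it, and the same region ran along Psmd13, a proteasome gene on the other strand from 1.80 to 18.5 kb. Coverage therefore did not separate Cox8b from its neighbour. Ndufa4l2, a paralogue of Ndufa4, had 31.98% in both strains, in a region that ran over Shmt2, whereas Ndufa4 had 93.7%. On exons alone they had 73.8% and 75%, while the longest transcript of Ndufa4l2 had 31.98% in both strains. The covered part of Ndufa4l2 began 1506 bp past its 5′ end.

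**Figure D2:**
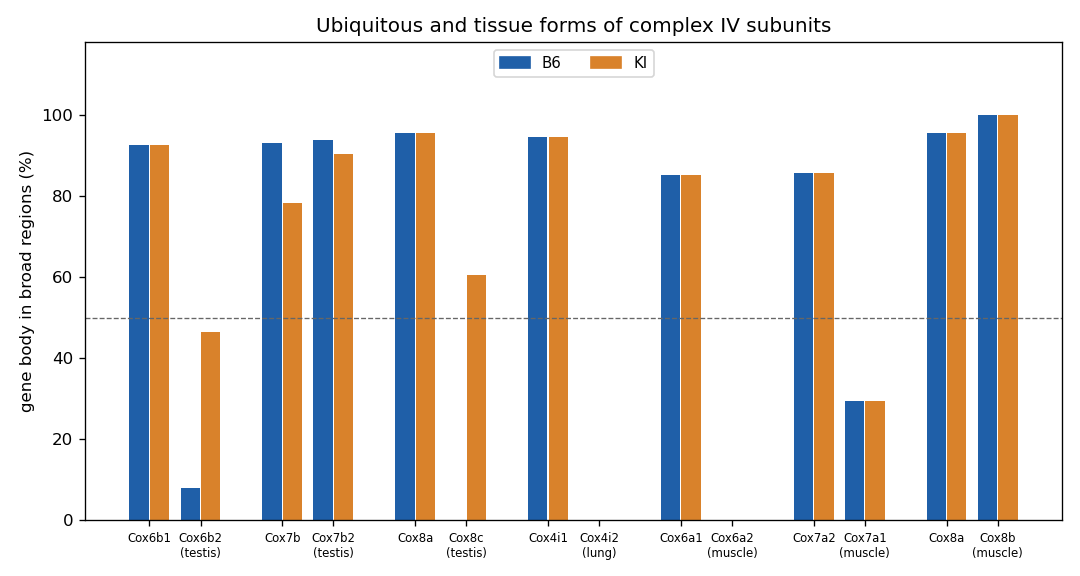
Coverage of the gene body by broad regions (%, y axis) for each tissue form of complex IV and its ubiquitous partner in B6 and KI, with 1 pooled value per gene and strain and no error bar. Cox4i2, Cox6a2, Cox7a1, Cox6b2 and Cox8c lie below their partners in both strains, and Cox7b2 and Cox8b do not.

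**Figure D3:**
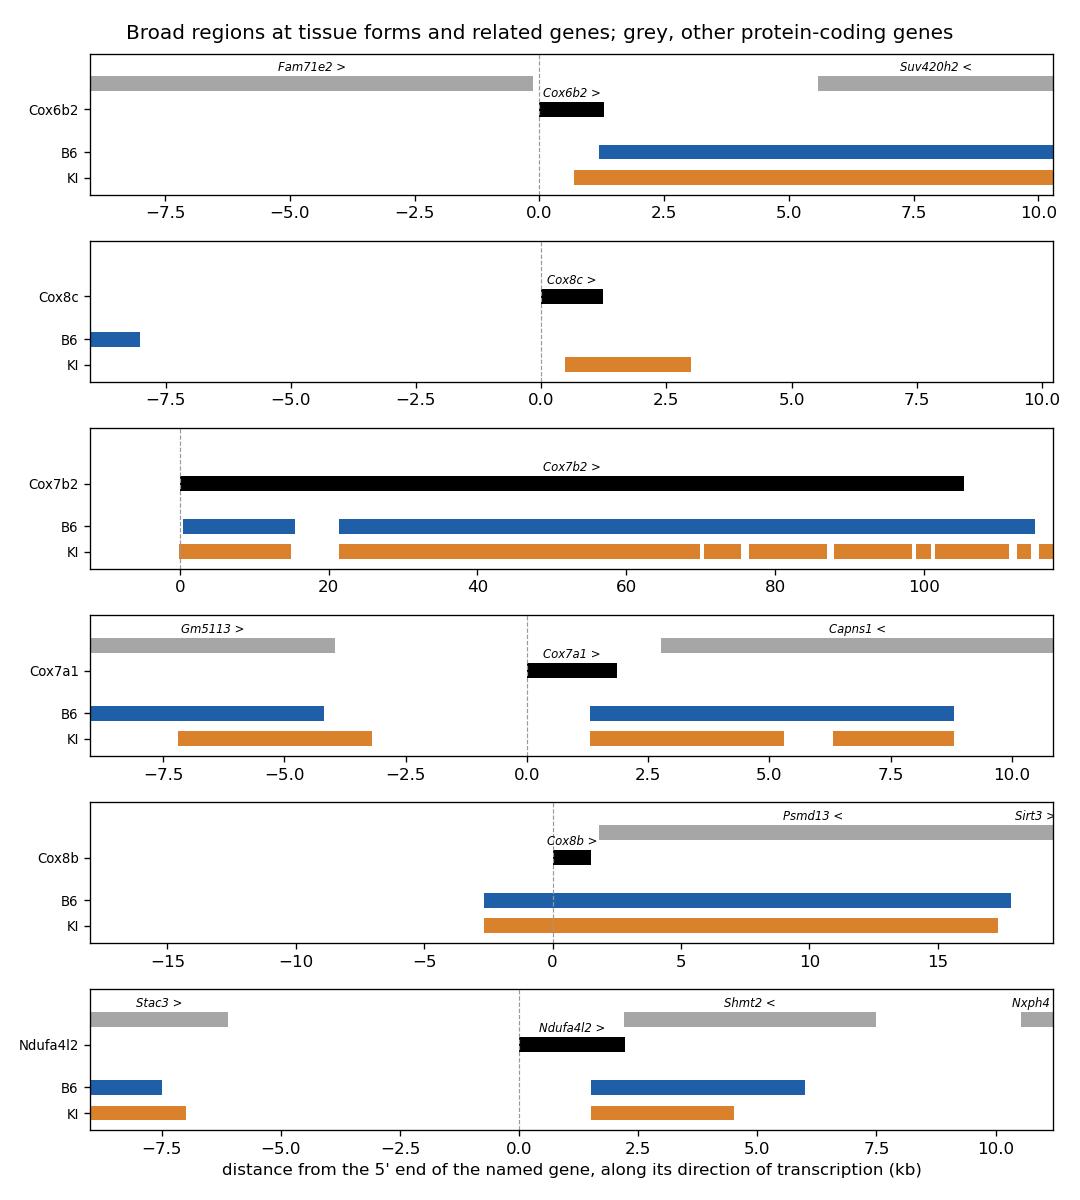
Genes and broad regions around Cox6b2, Cox8c, Cox7b2, Cox7a1, Cox8b and Ndufa4l2, drawn to scale in kb from the 5′ end of the named gene along its direction of transcription, with B6 and KI regions on separate lines. The regions over Cox8b and over the ends of Cox6b2, Cox7a1 and Ndufa4l2 also run over a neighbouring gene, and the regions over Cox8c and Cox7b2 do not.

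Ndufv3 was marked in B6 only, as were 3.06% of all genes, and Cox8c in KI only, as were 1.39%. A further 8 members were below 50% in both strains, against 55.4% of all genes, and 3 of them had no broad region in either strain, against 33.9%. The 3 were Cox4i2, Cox6a2 and Atp5l-ps1, a copy of Atp5l that the annotation lists as protein-coding. For comparison, Atp5l itself had 89.0% in both strains. The 3 other genes taken in by name and not known as subunits, Atp5s, Atp5sl and Cox4nb, were marked, and Cox4nb adjoins Cox4i1.

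Most other genes of the pathway that were examined were also marked. Cytochrome c1 (Cyc1), somatic cytochrome c (Cycs) and the complex III assembly factors Bcs1l and Ttc19 were marked in both strains, as were all 16 assembly factors of complex IV and ATP synthase examined, which include Sco1, Sco2, Surf1 and Lrpprc. Their coverage was at least 71.9% in B6 and 65.3% in KI over the 20 genes. Of 3 X-linked subunits, Ndufa1 had 81.6% in both strains and Cox7b was marked, while Ndufb11 had 45.7% in both. Among 6 testis forms of other energy genes, 3 were marked in each strain. These were Cyct, the testis cytochrome c, with 76.8% and 61.5%, Slc25a31, an ADP/ATP carrier, with 98.7% in both strains, and the glycolytic gene Gapdhs, with 75.5% and 68.3%. In contrast, Pgk2 had 0% in both, Pdha2 had 43.9% in B6 and 0% in KI, and Ldhc had 14.8% and 41.4%. Of their somatic partners, 5 of 6 were marked in B6 and 4 of 6 in KI. Ldha had 49.4% in both strains and Slc25a4 63.5% and 41.2%.

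Within marked members, coverage was low at the 5′ end and complete towards the 3′ end. Each gene was cut into 10 equal parts. In the 81 genes marked in both strains, the mean coverage was 38.4% in B6 and 38.7% in KI in the first part, 81.2% and 80.2% in the second, and 100% and 99.5% in the sixth. Coverage fell to 10.4% in B6 and 11.9% in KI over the 500 bp before the 5′ end, and was still 95.2% in B6 between 0.5 and 1 kb past the 3′ end. Over all 8602 autosomal genes marked in both strains, the mean for the first part was 52.2% in B6 and 49.1% in KI. The members were shorter, with a median of 7800 bp against 21972 bp, so each part spans fewer bases in them. The median distance from the 5′ end to the first covered base was 533 bp in B6 and 568 bp in KI for members. For all autosomal genes marked in both strains it was 897 bp in B6 and 960 bp in KI. The coverage threshold caps this distance at a share of gene length, so the cap was lower in the shorter members. Genes of similar length were not compared for this distance, so a difference at equal length was not tested. In the members the median run of the mark beyond the 3′ end was 3569 bp in B6 and 3508 bp in KI. In all autosomal genes marked in both strains it was 3789 and 3325 bp.

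**Figure D4:**
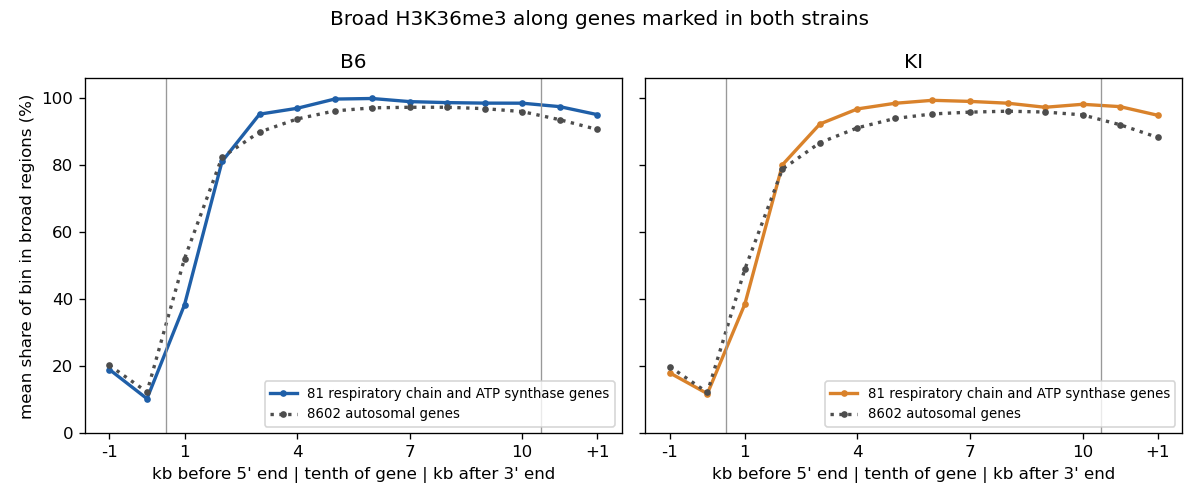
Mean share of each bin inside broad regions (%, y axis) from 1 kb before the 5′ end, through 10 equal parts of the gene, to 1 kb after the 3′ end, for the 81 members (solid) and the 8602 autosomal genes (dotted) marked in both strains. Bins outside the gene are 500 bp, and the members rise from 38.4% in the first part of the gene to 95.3% in the third in B6.

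In a few members the region also covered the 5′ end. Ndufa7, the longer gene model of Ndufb8, Cox8b, Atp5e and Atp5f1 were covered at the 5′ end and over the whole 1 kb upstream in both strains, and each has another protein-coding gene within 5 kb. Atp5g2 was covered at its 5′ end in B6 only, and Cox7b2, Atp5b, Atp5g1, Atp5g3 and Atp5k in KI only. In these 6 at most 32.8% of the upstream 1 kb was covered, and Atp5g2, Cox7b2 and Atp5g3 have no other protein-coding gene within 5 kb. For each marked member the region that covered most of it was taken. It touched no other protein-coding gene in 51 of 82 members in B6 and in 50 of 82 in KI, and its median length was 11.3 kb and 10.8 kb. Regions of other marked genes were not counted in this way, so neither value is shown to be particular to the members.

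Coverage was the same in both strains for many members. Of the 91, 53 had the same coverage above 0% in B6 and KI (58.2%), against 18% of all genes. This comparison is affected by which genes are marked and how long they are. Among genes marked in both strains the share was 50 of 81 members (61.7%) against 41.4% of all, and among those with lengths between the quartiles of the members it was 28 of 42 (66.7%) against 55.3%. The median difference between the strains was 0 percentage points. Coverage was at least 10 points higher in KI in 6 members, against 5.74% of all genes, and at least 10 points lower in 6, against 11%. The largest rise was that of Cox8c, by 60.5 points. It was followed by Atp5k, a small Fo subunit, with 61.2% in B6 and 100% in KI, and by Cox6b2, with a difference of 38.4 points. The largest decreases were in Ndufv3, a flavoprotein subunit that had 78.2% in B6 and 42.5% in KI, and in Ndufb3, with 86.7% and 60.6%. The exons of Ndufv3 had 86.6% in both strains, so its difference lay in introns. No replicate error is available for these differences.

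Refined peaks are narrow enrichments that the peak caller finds within or outside broad regions. At least 1 overlapped 69 of the 91 genes in B6, against 52.6% of all genes, and 69 in KI, against 55%, and 64 had a peak in both strains, against 47.5%. Once only genes marked in both strains are compared, the order is reversed, with a peak in 67 of 81 members in B6 (82.7%) against 87% of all, and in 66 (81.5%) against 88.3% in KI. Members with lengths between their quartiles had a peak in 36 of 42 cases in each strain (85.7%, 72.16 to 93.28), against 79.7% and 82.2% of marked genes of that length. In both comparisons among marked genes the share of all genes lay inside the interval of the members. Among the 17 members without a peak in either strain were Cox4i2, Cox6a2, Cox7a1, Cox8b, Cox6b2 and Ndufa4l2, but also the marked genes Cox6a1, Cox7c, Atp5e and Atp5l.

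The members held 109 different peaks in B6 and 144 in KI. Of these, 36 and 62 lay in 4 genes of 100 kb or more. Ndufaf2, a complex I assembly factor, held 12 in B6 and 21 in KI. Cox7b2 held 7 and 14, and Ndufs4, an accessory subunit of complex I, 6 and 13. Atp5o held 11 and 14, but 9 and 12 of them lay in Itsn1 and none in B6 and 1 in KI overlapped the short Atp5o transcript. Below 100 kb, 58 of 87 members, marked or not, had exactly 1 peak in B6 and 55 in KI. Of all marked autosomal genes of that size, 4509 of 8415 had exactly 1 in B6 and 3820 of 8166 in KI. The most in these shorter genes were in Ndufa12, an accessory subunit, with 1 in B6 and 6 in KI, and in Atp5s, a coupling factor, with 3 and 5. The 4 long members, all marked in both strains, had 0.644 peaks per 10 kb in B6 and 1.11 in KI, against 0.850 and 1.18 for all marked genes of that size. The order was the other way below 100 kb. There the 87 members, some of them unmarked, had 0.919 in B6 and 1.03 in KI, against 0.675 and 0.845 for all marked genes. By gene, 2 or more peaks were held by 7 of the 87 in B6 and 10 in KI, against 2727 of 8415 and 3287 of 8166 marked genes. Marked members were shorter than marked genes in general, and a difference in density at equal length was not tested.

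**Figure D5:**
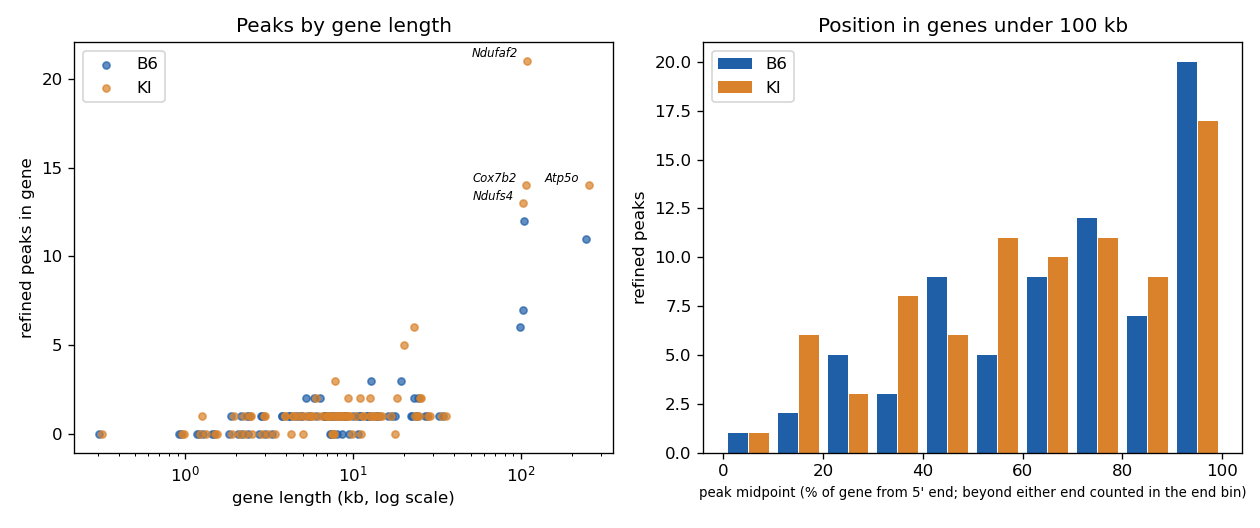
Left, number of refined peaks per gene (y axis) against gene length (kb, log scale) for the 91 genes in B6 and KI, with points of the strains shifted slightly sideways. Right, number of peaks by the position of their midpoint in members under 100 kb, as a percentage of the gene from the 5′ end, for 73 B6 and 82 KI peaks, most of which lie in the later part of the gene.

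In members below 100 kb the midpoints of refined peaks lay mostly in the later part of the gene, at a median of 70.7% of its length in B6 (quartiles 48.6% and 91.4%) and 66.8% in KI (43.7% and 84.9%). At or past the middle lay 53 of 73 peaks in B6 and 58 of 82 in KI, and 1 in each strain lay in the first 10% of the gene. Peak positions in other genes were not measured, so this is not shown to be particular to the members. The median width was 339 bp in B6 and 297 bp in KI, where the lists as a whole had 313 and 319 bp. The widest were a peak of 1751 bp on Sdhd, a membrane anchor of complex II, in B6 and another of 2267 bp on Uqcrh, the hinge protein of complex III, in KI.

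A peak of the other strain overlapped 29 of the 109 B6 peaks of the members (26.6%, Wilson 95% interval 19.2 to 35.6), against 17.6% of all B6 refined peaks and 23.3% of those in autosomal genes marked in both strains. For KI it was 28 of 144 (19.4%, 13.8 to 26.7), against 14.2% and 15.8%. Each of these backgrounds but 1, that of all B6 peaks, lay inside the interval of the members. The intervals treat peaks as independent draws, although 36 of the B6 and 62 of the KI peaks lay in 4 genes, so they are likely too narrow. With peaks up to 500 bp apart counted as shared, the count rose to 46 in each strain, and 103 and 143 of the members' peaks lay in a broad region of the other strain. Neither wider count was made for other genes. Since 81 of the 91 members were marked in both strains, most of their length lay in such regions. The B6 peaks outside broad regions of KI were 3 in Ndufaf2 and 1 each in Atp5o, Ndufs4 and Ndufv3. The KI peak outside those of B6 was that of Cox8c, of 279 bp. Ndufs4 held 4 shared peaks in each strain, and Cox7b2 and Atp5o held 2 each. The others were in Atp5b, Atp5d, Atp5sl, Cox4i1, Cox5b, Cox7a2, Cox8a, Ndufa2, Ndufa7, Ndufa8, Ndufa10, Ndufa13, Ndufaf2, Ndufb2, Ndufc1, Ndufs3, Ndufs8, Sdhaf2, Uqcr10, Uqcrb and Uqcrh. On Cox8a the B6 peak overlapped the gene and the KI peak that it met lay outside it.

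The sequences of a pair of shared KI peaks, both in genes that were covered to 100% in KI, are shown as examples of a full and a partial overlap. Over the shared peaks of the members the overlap ran from 2.63% to 100% of the shorter peak, and 23 of 29 in B6 and 22 of 28 in KI overlapped by at least 50% of it. Capitals mark the bases that also lie in the B6 peak.
Atp5b, chr10:127525874-127526110, plus strand: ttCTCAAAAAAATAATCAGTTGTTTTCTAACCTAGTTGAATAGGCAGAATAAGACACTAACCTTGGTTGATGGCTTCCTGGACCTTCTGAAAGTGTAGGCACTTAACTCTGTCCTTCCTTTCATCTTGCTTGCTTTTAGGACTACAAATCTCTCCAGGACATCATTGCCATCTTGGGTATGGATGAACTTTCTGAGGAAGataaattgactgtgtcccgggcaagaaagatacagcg
Ndufa7, chr17:33967232-33967422, plus strand: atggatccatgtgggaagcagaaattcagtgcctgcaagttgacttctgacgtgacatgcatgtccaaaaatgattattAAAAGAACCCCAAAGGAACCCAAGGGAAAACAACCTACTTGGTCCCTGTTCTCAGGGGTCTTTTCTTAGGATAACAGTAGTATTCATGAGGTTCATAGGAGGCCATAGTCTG
The Atp5b peak of 237 bp overlapped an exon at 79.6% of the gene and held the whole B6 peak of 198 bp. The Ndufa7 peak of 191 bp lay in an intron at 42.2% of the gene and shared 112 bp with a B6 peak of 601 bp. Ndufa7 encodes an accessory subunit of complex I.

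The promoter windows of the marked members were richer in CpG than those of the others. The 81 genes marked in both strains had a median of 18 CpG in 300 bases, and the 10 below 50% in at least 1 strain had 9.5. Over all genes the medians were 21 for those marked in both strains, 5 for those below 50% in at least 1 strain, and 12 for the whole set. The marked members therefore did not stand above marked genes in general, while the 10 low members had a higher median than low genes in general. The NRF1 motif was found in 15 of the 91 windows (16.5%), against 6.14% of all windows. All 15 were among the 81 members marked in both strains (18.5%), against 13.2% of all genes so marked. Sdha held 3 matches and Cox6a1 held 2. CCGGAAG was found in 19 of the 91 (20.9%), against 10.9% of all, and CCATNTT, the core of the YY1 motif, in 21 (23.1%), against 15.6%. Among the 81 marked members they were found in 18 (22.2%) and 19 (23.5%), against 21.9% and 16.6% of all marked genes. Of the 10 members below 50%, none held the NRF1 motif, 1 the ETS motif and 2 the YY1 motif, where the shares over all 12816 genes below 50% in at least 1 strain were 1.42%, 3.58% and 14.9%. Marked genes without any such match were also found, such as Cox5a with 35 CpG and Cox7c with 6. Cox8b, the covered muscle form, had 2 CpG, as had Cox6a2. These matches are a description of the letters in the windows and no binding was measured.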

How the data were processed

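The authors aligned unique reads to mm9 (BWA 1.2.3 in the submitters' processing notes), pooled the replicates within a strain, and used ZINBA with input as control to call broad and refined peaks. The 4 deposited lists hold positions only (chromosome, start, end), with no counts, heights or scores, so depth per region is unknown. The antibody label of the ChIP samples reads H3K36me6, and H3K36me3 follows the titles and the methods.

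Abutting or repeated broad regions were merged, positions were read as 1-based, and coverage was the percentage of a gene body inside broad regions. A refined peak was assigned to a gene, and called shared between strains, by an overlap of at least 1 bp. A gene with 50% coverage or more was called marked. Python 3.11.15, numpy 2.4.6, pandas 2.3.3, scipy 1.17.1 (Wilson intervals) and matplotlib 3.10.9 were used, with the GENCODE mm9 annotation and the matching genome. Coverage was tested on simulated data and 2000 of 2000 planted values were recovered. Genes were named by these rules: tissue forms and partners, members under 50% in a strain, the 5 largest strain differences, central subunits chosen by role, members with the most refined peaks, and members with shared peaks. One gene chosen by role is not reported here. Other genes named as examples or beside the threshold were chosen after their values were seen. Members and lists were chosen with earlier results of these data known. With 1 pooled list per strain no test was made. Alternatives were other thresholds, gene models, member sets, overlap rules and backgrounds.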

Additional observations from a re-analysis of the deposited data

How the results depend on the processing

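The difference between members and all genes in refined peaks changed sign with the genes compared. The share of members with a refined peak exceeded that of all genes by 23.2 percentage points in B6 and 20.8 in KI, but among genes marked in both strains the difference was -4.32 and -6.86, and among those with lengths between the quartiles of the members it was 5.97 and 3.56. Of the other alternative values of the main results, 59 stayed within a factor of 1.5 (counts) or 10 percentage points (coverage). The count of marked members was 19 (B6) and 20 (KI) with members that have no other gene within 5 kb, because only 21 were left. On exons alone the median coverage was 78.0% in B6 and 79.1% in KI, Cox6b2 minus Cox6b1 was -60.9 and -28.6 points, Cox8c minus Cox8a was -80.5 and -19.6 points, and Cox7b2 minus Cox7b in B6 was 10.99 points. Coverage at the 5′ end, 26.0% at the median of all members in the first 10% of the gene, was 42.5% and 36.4% over the first 1000 bp. Shared refined peaks rose to 46 in each strain when peaks within 500 bp were counted, and to 103 and 143 when broad regions of the other strain were. Neither wider count was made for other genes. The alternatives on neighbours within 5 kb, the quartiles of length, a single Ndufb8 model and members under 100 kb, and the comparisons among marked genes, were chosen after seeing the data. No paired analysis was possible because each strain has 1 pooled list, and for the same reason no replicate could be left out. The lists give no signal strength, so a gene with no region is one below the caller's threshold at this depth.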
